A study of Drosophila melanogaster with 6 samples.

Results

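The genes described here are Ldh, Gpdh1, Gpo1, Gpo2 and ERR of Drosophila melanogaster, which cover lactate dehydrogenase, the glycerophosphate shuttle and the nuclear receptor that sets the glycolytic state of larvae. They were chosen by symbol, and all 5 were found among the 17807 genes of the deposited table. Each of the 5 also passed the filter on low values (mean normalized count of 10 or more), as did 10969 genes in all.

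RNA sequencing was done on muscle-enriched lysates of larvae grown for about 90 h, in 2 genotypes with 3 libraries each. The tmodRNAi genotype is UAS-dcr2;;Dmef2-Gal4>UAS-tmodRNAi, in which a hairpin against tmod, the gene of the actin-capping protein tropomodulin, is expressed in muscle. The control genotype is UAS-dcr2;;Dmef2-Gal4>UAS-mCherryRNAi, whose hairpin targets a fluorescent protein that flies lack. Both carry the Dmef2-Gal4 driver, which is active in muscle, and a Dicer-2 transgene that strengthens the knockdown. Each library is a pool of 7 to 10 larvae, labelled as a biological replicate. The tissue field of the labels reads adult, but the samples are taken as larval here, after the title and the growth protocol. The knockdown acts in muscle, but the lysate is only enriched for it, so RNA of other tissues is also measured.

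As background, glycolysis turns NAD+ into NADH in the cytosol, and it stops unless NAD+ is made again. Lactate dehydrogenase does this by reducing pyruvate to lactate. The glycerophosphate shuttle does it in a pair of steps: a cytosolic glycerol-3-phosphate dehydrogenase, encoded by Gpdh1, reduces dihydroxyacetone phosphate, and a mitochondrial glycerophosphate oxidase, encoded by Gpo1, oxidizes the product again and passes the electrons to the respiratory chain. Fly larvae are known for high lactate dehydrogenase activity during growth, and ERR, the single fly member of the estrogen-related receptors, is required for the switch to that state in the embryo. Glycerol-3-phosphate is also the backbone of stored fat, and the shuttle is known for its role in insect flight muscle.

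In the tmodRNAi libraries both working steps of the shuttle were more abundant. Gpdh1 transcripts were 2.80-fold and Gpo1 transcripts 3.95-fold as abundant as in the mCherryRNAi libraries, as ratios of group means. Ldh, the most abundant of the 5 genes, was high and nearly equal in the 3 tmodRNAi libraries but spread widely among the controls, and it did not pass the test. ERR differed little, and Gpo2 had low counts in both groups. By limma with Benjamini-Hochberg adjustment over all tested genes, 2 of the 5 genes passed an adjusted p of 0.05, both higher in tmodRNAi. The background was 2613 of 10969 tested genes (23.8%), with 10.9% higher and 12.9% lower. By edgeR 0 of the 5 passed, with 2 at an unadjusted p under 0.05, against a background of 22.0% (9.13% higher). By DESeq2 the same 2 passed, against a background of 40.1% (18.9% higher and 21.1% lower).

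The libraries held 92705939 to 101067428 recovered reads in tmodRNAi and 83824273 to 110151028 in mCherryRNAi. The targeted gene tmod averaged 13569 ± 527 normalized counts in tmodRNAi and 79332 ± 11517 in mCherryRNAi (SD, n = 3 each), with a log2 fold change of -2.54 (adjusted p = 0.0045, limma). The library mCherryRNAi replicate 1 stood apart from the other controls. Across tested genes its log2 values correlated at 0.975, 0.961 and 0.971 with tmodRNAi replicates 1 to 3 and at 0.956 and 0.969 with mCherryRNAi replicates 2 and 3, which correlated with each other at 0.984. The results on the 5 genes and the counts of genes called per list are therefore given with and without it. The library was singled out from these same data, as the control most like tmodRNAi. Calls made without it are thus easier to reach and are not independent support. Without mCherryRNAi replicate 1, 5203 of the 10969 genes (47.4%) passed the threshold, 22.5% higher and 25.0% lower. Of the 5 genes 3 did, Ldh, Gpdh1 and Gpo1, all higher.

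**Figure D1:**
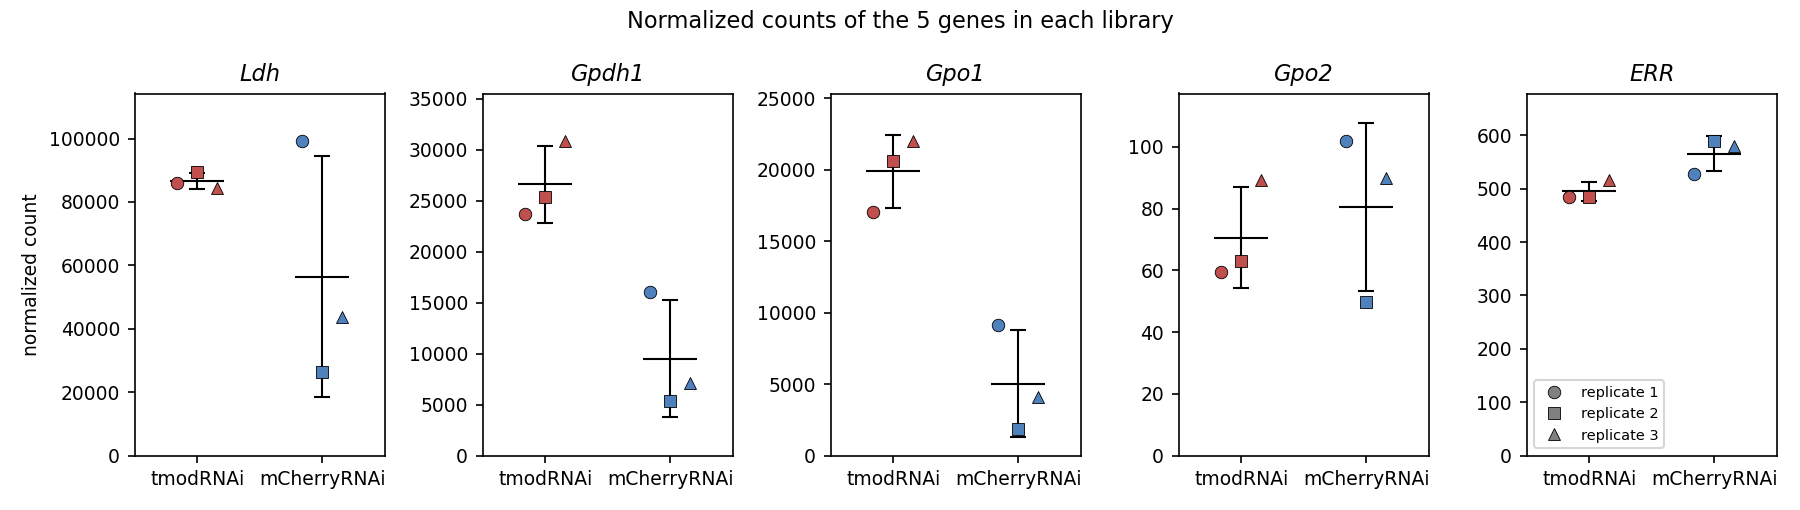
Normalized counts of each gene in the 6 libraries (vertical axes start at 0 and differ by gene), with tmodRNAi in red and mCherryRNAi in blue; marker shape gives the replicate number, and the bars are the mean ± SD of 3 libraries. Gpdh1 and Gpo1 are higher in each tmodRNAi library than in any control, whereas the highest Ldh value, 99313, belongs to mCherryRNAi replicate 1.

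Ldh (FBgn0001258) lies on chromosome 3L (minus strand), from 6259105 to 6262694 (dm6 coordinates, Ensembl BDGP6.54 annotation). Its exons overlap those of no other annotated gene. Its normalized counts were 85909.8, 89329.7 and 84564 in tmodRNAi replicates 1 to 3, against 99313, 26403 and 43763 in mCherryRNAi replicates 1 to 3. The tmodRNAi libraries lay within 1.06-fold of each other. The controls spanned 3.76-fold, and mCherryRNAi replicate 1 was above every tmodRNAi library, so the groups overlapped. The means were 86601 ± 2457 in tmodRNAi and 56493 ± 38086 in mCherryRNAi (SD, n = 3 each). The log2 fold change, taken on log2(normalized count + 1), was 0.83 with a 95% interval from -0.29 to 1.96 (adjusted p = 0.21, limma), which leaves room for no change and for a rise of several-fold. An exact two-sided permutation test gave p = 0.4, where 3 libraries against 3 cannot go below 0.1. Without mCherryRNAi replicate 1 the log2 fold change was 1.35 and passed the threshold (adjusted p = 0.0036, limma). The tmodRNAi mean was 2.47-fold the mean of mCherryRNAi replicates 2 and 3, but 0.872-fold the value of mCherryRNAi replicate 1.

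Gpdh1 (FBgn0001128), the cytosolic enzyme of the shuttle, lies on chromosome 2L (plus strand) from 5943643 to 5948968. Its normalized counts were 23652, 25364 and 30884 in the tmodRNAi libraries, against 16063, 5365 and 7087 in the controls. The lowest tmodRNAi library was above the highest control, and mCherryRNAi replicate 1 was the highest of the controls. Gpdh1 averaged 26633 ± 3779 in tmodRNAi and 9505 ± 5744 in mCherryRNAi (SD, n = 3 each). It rose by a log2 fold change of 1.64 (SE 0.40, 95% interval 0.66 to 2.62, adjusted p = 0.039, limma). A lncRNA on the opposite strand, CR44986, covers 22.1% of the Gpdh1 exon bases, and it was listed at 0 in all 6 libraries.

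Gpo1 (FBgn0022160), the mitochondrial partner, lies on chromosome 2R (minus strand) from 15857752 to 15862755, with no exon overlap. It had 17064, 20592 and 22013 normalized counts in the tmodRNAi libraries, against 9126, 1860.0 and 4125 in the controls. Again the groups did not overlap, and mCherryRNAi replicate 1 was closest to the tmodRNAi libraries. The mean was 19890 ± 2548 in tmodRNAi and 5037 ± 3718 in mCherryRNAi (SD, n = 3 each), and the log2 fold change was 2.26 (SE 0.55, 95% interval 0.92 to 3.60, adjusted p = 0.039, limma). Against mCherryRNAi replicate 1 alone, the tmodRNAi mean was 2.18-fold higher for Gpo1 and 1.66-fold higher for Gpdh1, differences from a single library with no replicate check. Over all 6 libraries, p was 0.1 for each gene by the exact two-sided permutation test, the smallest value possible. Both calls were narrow. By edgeR's quasi-likelihood test on the recovered reads the adjusted p was 0.054 for Gpdh1 and 0.053 for Gpo1, while DESeq2 gave 0.0025 and 0.0013. Of the 6 fits that each left out a library, each gene passed in 1, the fit without mCherryRNAi replicate 1. There the log2 fold changes were 2.10 for Gpdh1 and 2.84 for Gpo1 (adjusted p = 0.00037 and 0.0013, limma), and 47.4% of all tested genes passed. The other fits called 0 to 59 of the 10969 tested genes, so few genes of any kind passed in them.

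Gpo2 (FBgn0033190), a second glycerophosphate oxidase gene, lies on chromosome 2R (plus strand) from 7535919 to 7538297. Its normalized counts were 59.6, 62.9 and 89.3 in tmodRNAi, against 102, 49.9 and 89.8 in mCherryRNAi. The groups overlapped throughout, with the highest and the lowest library both among the controls. The log2 fold change was -0.15 with a 95% interval from -0.96 to 0.67 (adjusted p = 0.76, limma), and it changed sign, to 0.052, without mCherryRNAi replicate 1. Its exons share bases with CG1598 on the opposite strand and Cyt-b5 on the same strand, which together cover 3.53% of them.

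ERR (FBgn0035849) lies on chromosome 3L (minus strand) from 8183361 to 8186671. It had 485, 484 and 516 normalized counts in tmodRNAi, against 527, 589.7 and 579 in mCherryRNAi. The highest tmodRNAi library lay just below the lowest control, mCherryRNAi replicate 1, and the libraries of each group were close together, with a coefficient of variation of 3.70% in tmodRNAi and 5.91% in mCherryRNAi. The means were 495 ± 18.3 in tmodRNAi and 565 ± 33.4 in mCherryRNAi (SD, n = 3 each). The log2 fold change was -0.19 and missed the threshold (95% interval -0.42 to 0.040, adjusted p = 0.17, limma). Without mCherryRNAi replicate 1 it was -0.24 and missed it too (adjusted p = 0.096, limma). Groups without overlap were common, since 51.4% of tested genes showed it, 25.0% as higher and 26.4% as lower, and of the 5 genes here 2 were higher and 1 lower. Genes on the opposite strand, among them Uxs, a UDP-glucuronate decarboxylase gene, overlap 52.2% of the ERR exon bases. The strand setting of the counting is not given in the sources used here, so part of the ERR counts may belong to Uxs. Uxs itself had 2257, 2101 and 2450.0 normalized counts in tmodRNAi and 2466, 2321 and 2178 in mCherryRNAi (log2 fold change -0.034, adjusted p = 0.79, limma).

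**Figure D2:**
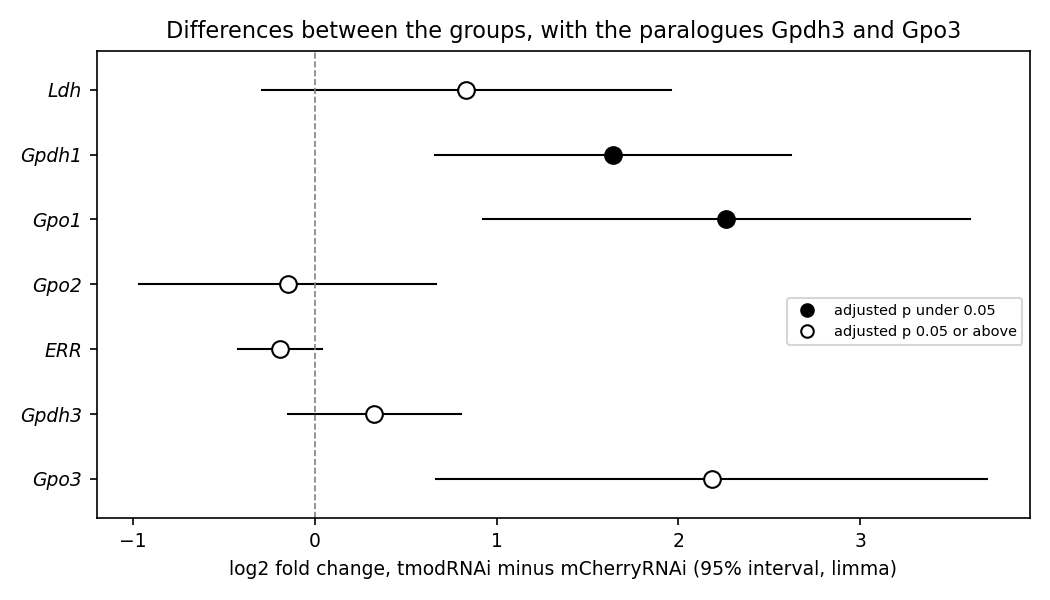
Log2 fold change of each gene, tmodRNAi minus mCherryRNAi, with 95% intervals from limma; filled points have an adjusted p under 0.05. Gpdh1 and Gpo1 are filled, and the interval of Gpo3, at a log2 fold change of 2.18, lies above 0 although its adjusted p of 0.051 misses the threshold.

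The families hold 3 further genes. Gpo3 (FBgn0028848), a low-abundance paralogue of Gpo1, had 35.4, 50.1 and 47.4 normalized counts in tmodRNAi, against 23.5, 6.44 and 4.28 in mCherryRNAi. Its groups did not overlap, and its log2 fold change of 2.18 just missed the threshold (adjusted p = 0.051, limma). Gpdh3 (FBgn0263048) had 1034, 1205 and 980.2 normalized counts in tmodRNAi, against 1069, 879 and 655 in mCherryRNAi, with a log2 fold change of 0.33 (95% interval -0.15 to 0.81, adjusted p = 0.23, limma) and overlapping groups. Without mCherryRNAi replicate 1, both genes passed as higher, where 22.5% of tested genes did. Gpdh2 (FBgn0034825) had 9.59 normalized counts in tmodRNAi replicate 2 and was listed at 0 in the other 5 libraries. It was not tested.

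Levels of different genes were compared per kilobase of annotated exon. On that scale the order in tmodRNAi was Ldh with 44594 ± 1265 normalized counts per kb, Gpdh1 with 8449.6 ± 1199, Gpo1 with 6791 ± 870.0, ERR with 223 ± 8.24 and Gpo2 with 29.7 ± 6.85 (SD, n = 3). The same order held in mCherryRNAi, with 29090.1 ± 19612 for Ldh, 3016 ± 1822 for Gpdh1, 1720 ± 1269 for Gpo1, 254 ± 15.0 for ERR and 33.9 ± 11.5 for Gpo2. Gpdh1 was above Gpo1 in every library, but the ranges of these neighbours touched in tmodRNAi, where Gpdh1 spanned 7504 to 9798 and Gpo1 5826 to 7516, and overlapped in mCherryRNAi. No other neighbours in the order overlapped. Gpo1 was thus the main oxidase transcript, and Gpo2 and Gpo3 together were a small fraction of it.

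Ratios of a pair of genes within a library do not depend on how libraries are scaled, and 5 were examined. The Ldh to Gpdh1 ratio of normalized counts was 3.63, 3.52 and 2.74 in tmodRNAi, against 6.18, 4.92 and 6.17 in mCherryRNAi. Here mCherryRNAi replicate 1 sat with its own group, and each tmodRNAi library was below each control. On the log2 scale the difference was -0.81 (1.71 ± 0.22 in tmodRNAi and 2.52 ± 0.19 in mCherryRNAi, SD, n = 3 each; exact two-sided permutation p = 0.1, the smallest possible, adjusted over the 5 ratios 0.17). The Gpo1 to Gpdh1 ratio was 0.721, 0.812 and 0.713 in tmodRNAi, against 0.568, 0.347 and 0.582 in mCherryRNAi. Its groups did not overlap either, and the log2 difference was 0.62 (exact permutation p = 0.1, adjusted 0.17).

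Gpdh1 to ERR differed most, by 1.83 on the log2 scale, without overlap (exact permutation p = 0.1, adjusted 0.17). For Ldh to ERR the log2 difference was 1.02 with overlapping groups (exact permutation p = 0.4, adjusted 0.4), and mCherryRNAi replicate 1, at a log2 ratio of 7.55, was above every tmodRNAi library. The difference was 1.59 without that library and 0.55 without mCherryRNAi replicate 2. Ldh to PyK, the pyruvate kinase gene one step upstream of lactate dehydrogenase, differed least. That log2 ratio was -1.03, -1.02 and -1.12 in tmodRNAi and -0.73, -1.10 and -0.85 in mCherryRNAi (difference -0.16, exact permutation p = 0.3, adjusted 0.38). No ratio could reach a p of 0.05 in the exact permutation test with 3 libraries against 3.

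**Figure D3:**
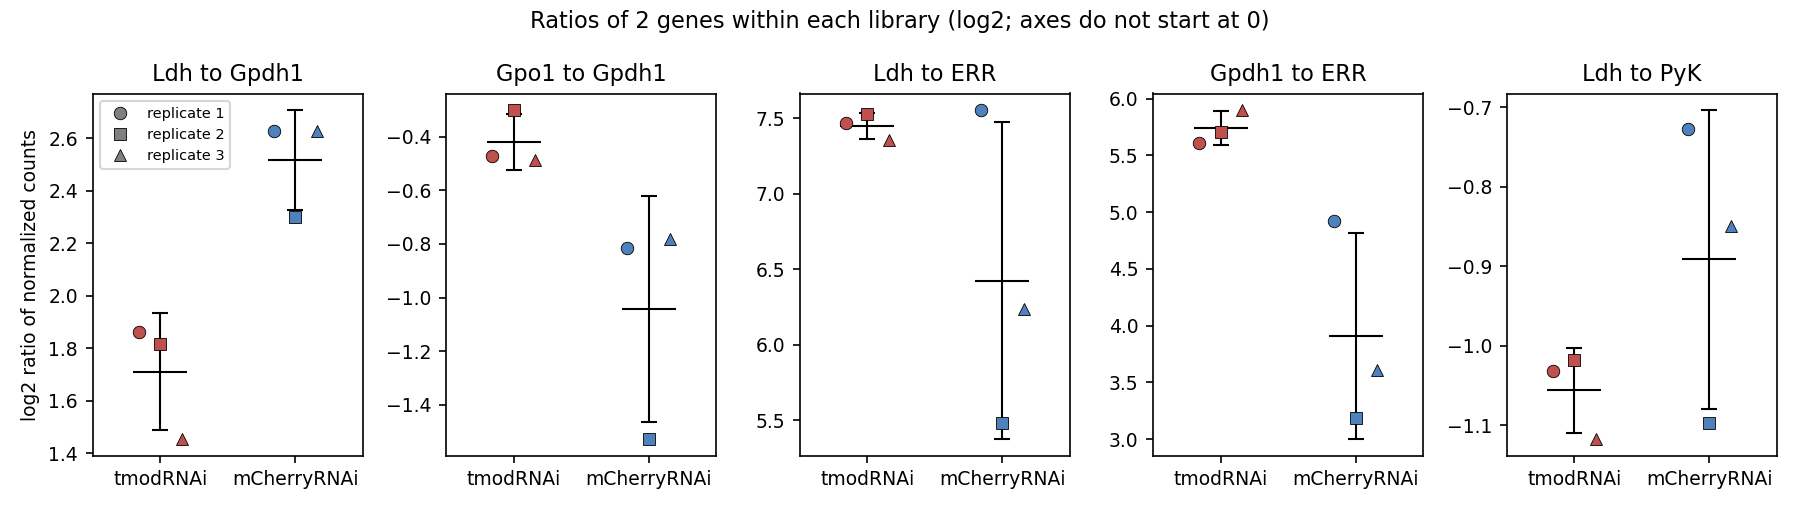
Log2 ratio of normalized counts for 5 pairs of genes in each library, with tmodRNAi in red and mCherryRNAi in blue; bars are the mean ± SD of 3 libraries, and the axes do not start at 0. Ldh to Gpdh1 is lower and Gpo1 to Gpdh1 higher in each tmodRNAi library than in any control, and mCherryRNAi replicate 1 lies among the controls in both.

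Sarcomere genes, the markers of muscle itself, moved with these results. Of the 20 on the list, all measured, 12 were called higher and 0 lower in tmodRNAi, beside 10.9% and 12.9% of all tested genes. The counts were 19 higher and 1 lower without mCherryRNAi replicate 1 (background 22.5% and 25.0%) and in DESeq2 (background 18.9% and 21.1%). In edgeR 2 were called higher and 0 lower (background 9.13% and 12.9%). Their summed normalized counts ranged from 13154794 to 14743582 in tmodRNAi and from 2978463 to 8657529 in mCherryRNAi, with the highest control in replicate 1. In lysates, more muscle RNA per cell and a larger share of muscle cannot be told apart. The 5 genes were therefore also set against the mean log2 value of the sarcomere list within each library, an alternative chosen after the data were seen. On this scale Ldh was at -1.77, -1.73 and -1.94 in tmodRNAi and at -0.99, -1.48 and -1.07 in mCherryRNAi, so each tmodRNAi library was lower. The difference was -0.63, the opposite sign to the difference in normalized counts, and did not pass (adjusted p = 0.10, limma).

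The sarcomere genes themselves differed widely, with log2 fold changes from -0.44 to 2.81 (limma), so this scale depends on the genes averaged. Gpdh1 nearly followed the mean of the list. It was at -3.63, -3.55 and -3.40 in tmodRNAi and at -3.62, -3.78 and -3.70 in mCherryRNAi, a difference of 0.18 (adjusted p = 0.69, limma). Gpo1 stayed higher in every tmodRNAi library, by 0.80 (adjusted p = 0.11, limma). ERR and Gpo2 were lower relative to the list by -1.66 and -1.61 (adjusted p = 0.013 and 0.017, limma). The median of all tested genes was -1.44 on this scale, so most genes were lower on it.

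**Figure D4:**
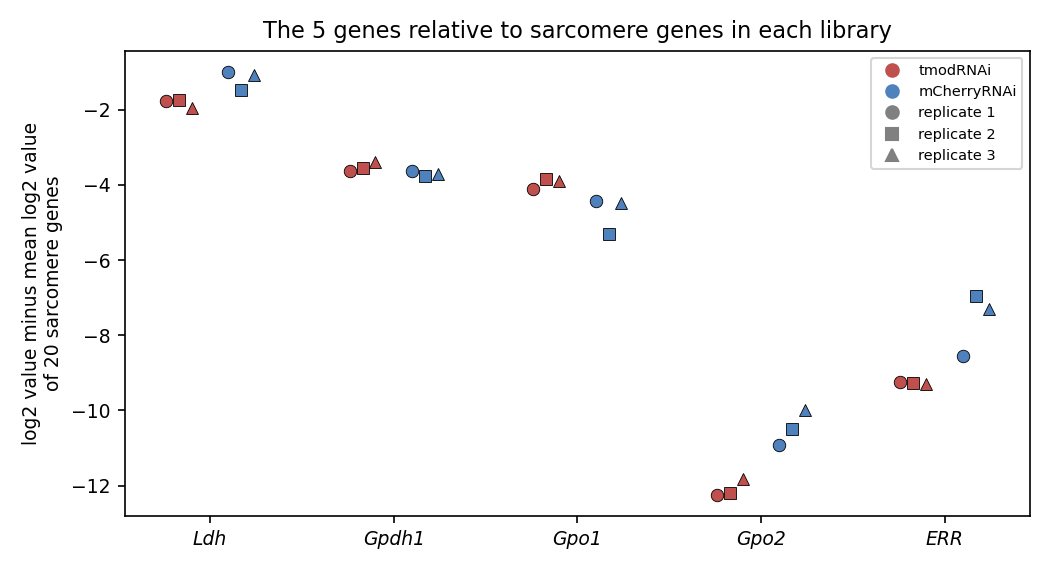
Log2 value of each gene minus the mean log2 value of 20 sarcomere genes in the same library, with tmodRNAi in red on the left and mCherryRNAi in blue on the right of each gene. The Gpdh1 libraries of both groups lie together between -3.78 and -3.40, Ldh is lower and Gpo1 higher in each tmodRNAi library.

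Other markers also differed. The summed counts of 10 fat body markers, a tissue in which Gpdh1 is also active, ranged from 381413 to 1053778 in tmodRNAi and from 260554 to 357046 in mCherryRNAi, with none at 0 in all libraries. Of the 10, 4 were called higher and 2 lower, with and without mCherryRNAi replicate 1. The background was 10.9% higher and 12.9% lower with that library, and 22.5% and 25.0% without it. With all libraries, Lsp1alpha, Lsp1beta, Lsp1gamma and Apoltp were called higher, with log2 fold changes of 2.53, 2.30, 2.20 and 2.36 (limma). Cp1 and Larp4B were called lower, at -0.47 and -0.39. By sign 7 of the 10 fat body markers were higher and 3 lower. Their part in the Gpdh1 and Gpo1 results was not tested.

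Genes that answer the molting hormone ecdysone, and so follow developmental stage, had negative log2 fold changes in 13 of 14 cases, with a median log2 fold change of -1.19 beside 0.022 for all tested genes. Of these 14, 3 passed as lower and 1 as higher, beside 12.9% and 10.9% of all tested genes. Together the share was near the background of 23.8%. Without mCherryRNAi replicate 1, 12 passed as lower, where the background was 25.0%. In edgeR and DESeq2, 5 and 9 were called lower, against 12.9% and 21.1% of tested genes. Eip74EF had 25337, 21588 and 19559 normalized counts in tmodRNAi, against 30446, 40572 and 48083 in mCherryRNAi (adjusted p = 0.037, limma). The early transcription factor gene br and ImpL2, which encodes an insulin-binding protein, also fell, with log2 differences of -1.61 (adjusted p = 0.045, limma) for br and -1.13 (adjusted p = 0.043, and 0.053 in edgeR) for ImpL2. Summed over the list, the counts were 149604 to 209661 in tmodRNAi and 286820.2 to 500144 in mCherryRNAi, where replicate 1 was the lowest. That library was often near tmodRNAi in this list, so the difference also ran within the controls. Eip78C had 172, 203 and 224 normalized counts in tmodRNAi, against 275, 12633 and 8127 in mCherryRNAi (adjusted p = 0.085, limma). For br the controls were at 104068, 284092 and 266846, but for ImpL2 replicate 1 lay between the other controls. Whether stage contributed to the differences in the 5 genes was not tested.

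A list of regulatory genes, drawn up around ERR and the hypoxia response, was compared next. Whether these genes act on ERR or Ldh in these larvae was not tested. Among 11 genes, 1 passed as higher and 3 as lower in tmodRNAi, against 10.9% and 12.9% of all tested genes. In each direction 3 passed without mCherryRNAi replicate 1 (background 22.5% and 25.0%). The one that passed as higher was srl, the fly homologue of the PGC-1 coactivators, which in mammals act with estrogen-related receptors. It had 3566, 2804 and 3167 normalized counts in tmodRNAi, against 1892, 1884 and 2160.4 in mCherryRNAi. All 3 controls lay together and below the tmodRNAi libraries (log2 fold change 0.68, SE 0.11, adjusted p = 0.031, limma). EcR, the ecdysone receptor gene, had 27657, 22837 and 20209 normalized counts in tmodRNAi and 36815, 54434 and 58477 in mCherryRNAi (log2 fold change -1.07, adjusted p = 0.031, limma). The gene tgo, which encodes the partner subunit of the hypoxia factor Sima, fell by 0.35 on the log2 scale (adjusted p = 0.039, limma). Hr38 had a larger log2 fold change than srl, 1.79, but missed the threshold (adjusted p = 0.087, limma). It had 5828, 5703 and 5374 normalized counts in tmodRNAi, against 4802, 770 and 1161 in mCherryRNAi.

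Glycolysis feeds both routes. All 12 glycolytic genes had positive log2 fold changes, with a median of 0.79, but 0 passed by limma, and 0 by edgeR or DESeq2. At an unadjusted p under 0.05 there were 2 by limma. Ald1, the aldolase gene, had 539280.0, 559630.2 and 508422 normalized counts in tmodRNAi, against 566369.6, 160003 and 241977 in mCherryRNAi, a spread like that of Ldh. Gapdh2 averaged 419993 ± 39838 in tmodRNAi and 233904 ± 141342 in mCherryRNAi (SD, n = 3 each; adjusted p = 0.11, limma). Without mCherryRNAi replicate 1, 10 of the 12 passed, all higher, where 22.5% of tested genes did.

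The malate-aspartate shuttle also carries cytosolic electrons into mitochondria. Its list held 7 genes, among them Men and Idh, whose enzymes use malate and isocitrate but are not parts of the shuttle. The 7 log2 fold changes were positive, with a median of 0.82. Of these genes 2 passed, aralar1 and Men, both higher. That share was near the background of 23.8% in either direction, of which 10.9% was higher. As higher, 6 passed without mCherryRNAi replicate 1, where 22.5% of tested genes did. aralar1, the mitochondrial aspartate-glutamate carrier, had 12261, 12699.6 and 14988 normalized counts in tmodRNAi, against 9902, 4054 and 4836 in mCherryRNAi (log2 fold change 1.20, adjusted p = 0.049, limma). Men, the malic enzyme gene, rose by 0.87 on the log2 scale (adjusted p = 0.043, limma). In edgeR 0 of the 7 passed, with 3 at an unadjusted p under 0.05 (adjusted p = 0.070 for aralar1 and 0.055 for Men). DESeq2 called 3, all higher, where 18.9% of tested genes were called higher.

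Of 17 tested genes for the fate of pyruvate and lactate, 0 passed as higher and 2 as lower by limma, with 6 higher at an unadjusted p under 0.05. Without mCherryRNAi replicate 1, 8 passed as higher and 4 as lower, against a background of 22.5% and 25.0%. PCB, pyruvate carboxylase, had 44073, 37258 and 28702 normalized counts in tmodRNAi, against 72199, 131539 and 143126 in mCherryRNAi (log2 fold change -1.62, adjusted p = 0.031, limma). Mct1, a monocarboxylate transporter gene, fell to 2020.1 ± 192 normalized counts in tmodRNAi, against 4234 ± 1471 in mCherryRNAi (SD, n = 3 each; adjusted p = 0.048, limma). DESeq2 called 6 of the 17 higher and 4 lower (background 18.9% and 21.1%), and edgeR called 0 higher and 2 lower (background 9.13% and 12.9%).

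The pentose phosphate pathway branches off above these steps. Of its 6 genes, 2 passed as lower and 1 as higher, against 12.9% and 10.9% of all tested genes. Leaving out mCherryRNAi replicate 1, 2 passed in each direction (background 25.0% lower and 22.5% higher). In edgeR 2 were called lower and 0 higher (background 12.9% and 9.13%). Zw, glucose-6-phosphate dehydrogenase, had 2261, 1831 and 1593 normalized counts in tmodRNAi, against 3691, 7429 and 6899 in mCherryRNAi (log2 fold change -1.61, adjusted p = 0.031, limma). Pgd, the next dehydrogenase, fell by 0.99 on the log2 scale, and Rpi, the ribose-phosphate isomerase gene, rose by 0.68 (adjusted p = 0.037 and 0.049, limma); Rpi did not pass in edgeR (0.059).

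For glycerol-3-phosphate in lipids, 3 of 11 genes passed as higher and 1 as lower, with a median log2 fold change of 0.085, against 10.9% and 12.9% of all tested genes. With mCherryRNAi replicate 1 left out, 5 passed as higher and 3 as lower (background 22.5% and 25.0%). DESeq2 called 5 higher and 2 lower (background 18.9% and 21.1%). Gk1, a glycerol kinase gene that makes glycerol-3-phosphate from glycerol, had 2155, 2339.6 and 2486 normalized counts in tmodRNAi, against 1831, 1505 and 1394 in mCherryRNAi (log2 fold change 0.57, adjusted p = 0.034, limma). The acyltransferase genes Agpat1 and Agpat4 rose too, with log2 differences of 1.54 (adjusted p = 0.038, limma) for Agpat1 and 2.05 (adjusted p = 0.043, and 0.065 in edgeR) for Agpat4, with Agpat4 at 270 ± 66.1 normalized counts in tmodRNAi and 75.8 ± 59.4 in mCherryRNAi (SD, n = 3 each).

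**Figure D5:**
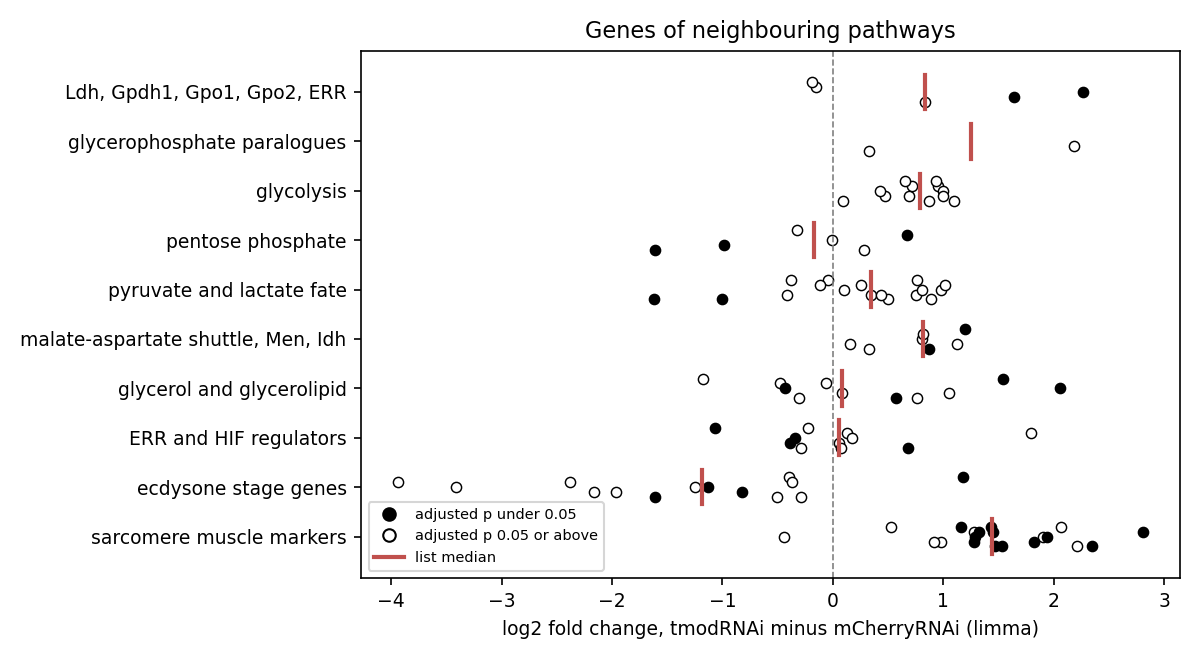
Log2 fold change, tmodRNAi minus mCherryRNAi, of each tested gene on the lists; filled points have an adjusted p under 0.05 and red bars are list medians. The glycolysis points are open and above 0, with a median of 0.79, and the ecdysone stage genes lie mostly below 0, with a median of -1.19.

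Likeness of pattern was measured as the Euclidean distance between log2 values over the 6 libraries, after subtracting the mean of each gene, among the 9199 genes averaging 50 normalized counts or more. The smallest distances from Ldh were those of Ald1 (0.165), the glycogen phosphorylase gene GlyP (0.203) and the triosephosphate isomerase gene Tpi (0.230). GlyP had 362000.4, 368474 and 402099 normalized counts in tmodRNAi, against 419466, 116715 and 173554 in mCherryRNAi, with mCherryRNAi replicate 1 again the highest. Nearest to Gpdh1 were PK1-R, a pyrokinin receptor gene, at 0.189, CG7910 at 0.225 and lncRNA:CR45606 at 0.240. Nearest to Gpo1 were CG14259 at 0.263, CG11044 at 0.360 and SmydA-3 at 0.377. ERR was closest to TH1, which encodes a subunit of the negative elongation factor, at 0.034, then to EMC2A at 0.039 and botv at 0.054. Gpo2 was closest to asRNA:CR46093 and Tsp47F (0.354 and 0.355) and to CG42266 (0.406).

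Among the 5 genes themselves, the closest pairs were Gpo2 with ERR at 0.939 and Gpdh1 with Gpo1 at 0.978. The distance is not scaled by how much a gene varies, so genes that change little come out close. Among the controls, Gpo2 was lowest in replicate 2 (49.9 normalized counts), where ERR was highest (589.7). Ldh was at 1.07 from Gpdh1 and at 1.80 from Gpo1, and the widest distance was 3.48, between Gpo1 and ERR. These distances describe the 6 libraries and carry no test.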

How the data were processed

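The authors deposited normalized counts per gene in 6 libraries, a signal that is never negative. DESeq2 1.30.1 and build dm6 are named in the submitters' processing notes; aligner, counting tool and strand setting are not given in the sources used here. Labels' protocols name Trizol extraction and a SMARTer kit, with 50 nt paired-end reads. Dividing each column by its lowest nonzero value gave whole numbers for 100% of genes (tolerance 0.001), taken as reads; a floor of 3 reads was 2.41 to 3.31 normalized counts, for counting error only.

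Genes with a mean of at least 10 were tested on log2(normalized count + 1), which understates changes of low genes, with limma 3.58.1 (trended prior) in R 4.3.3 and Benjamini-Hochberg adjustment over 10969 genes at 0.05. Exact permutation tests used scipy 1.17.1. edgeR 4.0.16 and DESeq2 1.42.0 on recovered reads were alternatives, as were other pseudocounts, filters and scalings, leaving out libraries and the replicate block. The main limma fit, edgeR and DESeq2 were also run on simulated counts, and the other settings were not. Positions and exon lengths are from Ensembl BDGP6.54 (17710 identifiers found).

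The genes and lists were chosen with earlier results of these data known. Genes named beyond the 5 are tmod, the paralogues, the 3 nearest in pattern and up to 3 per list. Those from lists have the smallest adjusted p under 0.05, otherwise they are the 2 most abundant. Genes overlapping exons, PyK, Eip78C, Hr38 and some genes of the marker lists were added. No sequences are shown.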

Additional observations from a re-analysis of the deposited data

How the results depend on the processing

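Gpdh1 and Gpo1 kept their direction under every alternative tried, but not their call. The log2 fold changes of 1.64 and 2.26 stayed as they were without the trend in limma (adjusted p = 0.059 and 0.058) and with the replicate block (0.096 each), and were 1.50 and 1.99 in edgeR (0.054 and 0.053). Relative to the sarcomere list, added after seeing the data, they were 0.18 and 0.80 (0.69 and 0.11), Ldh reversed to -0.63 (0.10), and Gpo2 and ERR, at -1.61 and -1.66, passed (0.017 and 0.013). Leaving out each library gave 0.39 to 1.35 for Ldh, 1.31 to 2.10 for Gpdh1, 1.69 to 2.84 for Gpo1, -0.46 to 0.052 (without mCherryRNAi replicate 1) for Gpo2, -0.24 to -0.16 for ERR and -2.62 to -2.42 for tmod, which passed in 3 of the 6 fits and not with the replicate block (-2.54, adjusted p = 0.096). The ratio differences kept their sign in each setting tried, with Ldh to Gpdh1 at -0.92 to -0.68 and Gpo1 to Gpdh1 at 0.38 to 0.75 when libraries were left out.

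The number of genes called was 2613 (45.7% higher). It was 954 without the trend, 4364 in DESeq2, 2 at an adjusted p under 0.01, 7486 (170 higher, 7316 lower) relative to the sarcomere list, and 0 with the replicate block in limma, where 3969 genes had an unadjusted p under 0.05. It ranged from 0 to 5203 when each library was left out. Of the 16 genes named from the lists that passed in limma, 4 passed without the trend and 11 in edgeR. Median centring gave 36.1% higher calls. Deviations of same-numbered libraries from their group means correlated at -0.057, 0.023 and -0.018, so the numbers are treated as names only. For the changed calls the cause was not tested. Depth limits Gpdh2, Gpo3 and Gpo2.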

Other observations

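The other marker lists were read as a check on what the lysates held. Of all tested genes, limma called 10.9% higher and 12.9% lower, and 22.5% and 25.0% without mCherryRNAi replicate 1. DESeq2 called 40.1% and edgeR 22.0% in either direction. Hemocyte markers summed to 321056 to 397348 normalized counts in tmodRNAi and to 215828 to 283950 in mCherryRNAi; 3 of 10 were called higher and 4 lower, and 4 and 4 without mCherryRNAi replicate 1. Tracheal markers summed to 411812 to 429617 in tmodRNAi and to 94554 to 350328 in mCherryRNAi, with 0 of 5 called by limma, 4 at an unadjusted p under 0.05, 2 called by DESeq2 and 0 by edgeR; without mCherryRNAi replicate 1, 3 were called higher and 2 lower. Summed cuticle and epidermis markers overlapped between the groups, at 10162854 to 12314235 in tmodRNAi and 6233452 to 14431379 in mCherryRNAi. Most of these counts came from Lcp1, Lcp2, Lcp3 and Lcp4, so the sums say little about the rest. By sign 6 of the 10 were higher and 4 lower. Called lower were 2, Cpr49Ab and Ddc, with log2 fold changes of -6.45 and -4.50 (limma). Without mCherryRNAi replicate 1, 4 were called higher and 3 lower. Summed neuron markers overlapped as well, at 10947 to 14504 in tmodRNAi and 12210.2 to 12679 in mCherryRNAi, but most of these counts came from Csp. By sign 7 of the 8 were higher and 1, Csp, lower, with a median log2 fold change of 0.53 (limma). In each direction 1 was called, with and without mCherryRNAi replicate 1. Salivary gland markers were low, at 357 to 3544 in tmodRNAi and 129 to 905 in mCherryRNAi. Of these 9 markers 0 were called, with and without mCherryRNAi replicate 1. Gut markers were low as well, at 146 to 362 in tmodRNAi and 29.9 to 519 in mCherryRNAi, with Npc2e listed at 0 throughout. Only 3 gut markers were tested, with 0 called, and 1 called higher without mCherryRNAi replicate 1. The part of these markers in the results on the 5 genes was not tested.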
